A study of Mus musculus with 18 samples.

Results

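The genes described here are a run of neighbours on the proximal part of mouse chromosome 2, from Traf2 to Garnl3, measured in mammary tumours of mice with or without the transcription factor Snai2. They were taken from a list of 50 symbols. The members were chosen by the WT values themselves: this region was lower in parous than in nulliparous WT tumours, so the contrast between those WT groups is given below as a description, without a test. Each gene was read from a probe set that the platform annotation assigns to that gene alone, and where several existed from the one with the highest mean. This gave 49 of the 50 genes, out of 19938 genes measured in all. Ass1, argininosuccinate synthase, was only on probe sets shared with other genes and has no value here. Adamts13 and Ncs1 lay among the dimmest 40% of all genes by mean log2 value, and the other 47 members lay above that limit.

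RNA came from luminal ERBB2+ mammary tumours of mice of 2 parent strains, FVB/N-Tg(MMTVneu)202Mul/J and B6;129S1-Snai2tm2Grid/J. The first strain expresses the neu (ErbB2) oncogene from the MMTV promoter, which is active mainly in mammary epithelium, and the second carries a targeted germline allele of Snai2. All mice carried the ERBB2 transgene, the controls included, and each was labelled Snai2 WT or Snai2 KO, parous or nulliparous, and with or without metastasis. WT mice with metastasis gave 4 tumours from nulliparous and 4 from parous animals. KO mice without metastasis gave 3 nulliparous and 3 parous tumours. KO mice with metastasis gave 2 parous samples and 1 nulliparous tumour. All WT mice had metastasis, so no comparison within WT speaks to it, and the sources used here give no ages. The deposited values are log2 expression after RMA, in which a difference of 1 equals a doubling of signal, and members are compared between tumours and not with one another.

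Replicates 2 and 3 of the parous KO tumours with metastasis were nearly identical. The SD of their difference was 0.102 on the log2 scale over 10252 genes with a mean of at least 8, and the next closest of 153 pairs of arrays had 0.2845. Their mean was used as 1 sample, which leaves 17 samples from 18 arrays. The KO allele was checked through Snai2 itself. Its log2 level ran from 6.28 to 6.79 in KO and from 6.68 to 7.09 in WT tumours, and 7 of 9 KO samples lay below the lowest WT tumour, though the sources used here do not say which part of the gene the probe set reads. Erbb2 lay between 12.45 and 12.92 in all samples. The summed level of 12 luminal epithelial markers, given as their mean log2 value, lay between 11.1 and 11.5 in every tumour, with 1 of the 12 among the dim genes.

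As background, neighbouring genes on a chromosome share its copy number, its chromatin state and the parental strain it came from, and their levels in tumours can vary together. The stretch from Traf2 to Garnl3 is dense in housekeeping genes. It holds genes of the Surfeit cluster (Surf1, Surf2, Surf4, Surf6 and Med22), a compact group of unrelated genes. Rexo4 lies close to them. The stretch also holds several genes known in cancer, among them the receptor Notch1, the kinase Abl1 and the mTOR inhibitor Tsc1. Annotated spans overlap for some neighbours (Surf1 with Surf2, Surf2 with Surf4, Tor1a with Tor1b, Inpp5e with Pmpca), and such genes are not fully separate measures.

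The promoters of 4 members are printed because they belong to the genes on which the values below turn, and because members that vary together were searched for shared letters. Notch1, Rexo4 and Gle1 were among the lowest members in parous WT tumours, and Ak1 was the member that was higher. Each is the 250 bases before a RefSeq gene start on build GRCm38.p6, read on the gene's strand, with the GC box GGGCGG or its reverse complement CCGCCC and the E-box CAGGTG or its complement CACCTG in capitals. The windows are chr2:26503823-26504072 on the minus strand for Notch1, chr2:26964387-26964636 on the minus strand for Rexo4, chr2:29935159-29935408 on the plus strand for Gle1 and chr2:32621508-32621757 on the plus strand for Ak1, the last being 1 of 4 windows listed for that gene. The Notch1 window also overlaps a predicted gene.
Notch1: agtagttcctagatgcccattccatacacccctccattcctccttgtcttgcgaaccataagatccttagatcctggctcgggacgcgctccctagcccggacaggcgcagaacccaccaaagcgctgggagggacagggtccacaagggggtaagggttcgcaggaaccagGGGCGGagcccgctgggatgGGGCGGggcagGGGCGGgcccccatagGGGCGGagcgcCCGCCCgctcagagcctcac
Rexo4: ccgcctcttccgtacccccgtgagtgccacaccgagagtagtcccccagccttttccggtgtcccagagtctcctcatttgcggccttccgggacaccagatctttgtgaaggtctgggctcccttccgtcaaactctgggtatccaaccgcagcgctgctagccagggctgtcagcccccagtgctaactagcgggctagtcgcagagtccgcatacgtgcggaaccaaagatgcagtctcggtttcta
Gle1: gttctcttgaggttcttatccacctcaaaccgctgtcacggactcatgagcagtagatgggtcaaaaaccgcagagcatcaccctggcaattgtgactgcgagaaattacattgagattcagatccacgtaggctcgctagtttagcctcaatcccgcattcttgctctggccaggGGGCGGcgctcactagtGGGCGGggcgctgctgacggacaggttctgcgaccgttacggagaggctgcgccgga
Ak1: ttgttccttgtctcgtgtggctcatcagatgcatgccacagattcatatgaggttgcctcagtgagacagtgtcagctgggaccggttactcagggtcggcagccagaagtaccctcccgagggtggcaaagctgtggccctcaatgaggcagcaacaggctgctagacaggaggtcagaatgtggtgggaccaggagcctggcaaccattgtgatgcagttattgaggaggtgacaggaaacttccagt
The Notch1 window held 5 GC boxes and the Gle1 window 2, while those of Rexo4 and Ak1 held 0, and none of the 4 windows printed held the E-box, which Snail family factors bind. Of the other windows listed for Ak1, 1 held 2 of these E-boxes. Among low members whose windows are not printed, Surf4 had 1 such E-box, and Garnl3, Usp20, Rxra and Traf2 had 0. Of the 50 symbols, 48 had promoters in the table, with 64 windows between them. The GC box, searched on both strands as were the other motifs, was in 59.4% of these windows and in 32.7% of all 32851 promoter windows of the same length. CAGGTG was in 14.1% against 17.2%, CCAAT in 28.1% against 33.9% and TATAAA in 3.12% against 12.4%. Median GC content was 61.0% in the members' windows and 52.4% over all. These shares describe letters, and the windows of neighbouring and alternative starts overlap.

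The members' level in a tumour was summarised as the median, over the 49 genes, of each gene's log2 deviation from its mean over the 17 samples. It was 0.09, 0.13, 0.14 and 0.25 in the nulliparous WT tumours. In the parous WT tumours it was -0.09, -0.23, -0.02 and -0.20 in replicates 1 to 4. The WT groups, which the choice of genes set apart, were therefore separate, with parous replicate 3 nearest to the middle. In that tumour 26 of 49 members lay below their own mean, against 38, 42 and 41 in replicates 1, 2 and 4 and between 7 and 13 in the nulliparous WT tumours.

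The KO tumours, which played no part in the choice, lay between and across these values. Without metastasis, the level was -0.05, -0.02 and 0.10 in nulliparous KO tumours and 0.08, -0.23 and -0.01 in parous ones. Parous KO tumour 2 had 38 of 49 members below their mean and reached the lowest WT values, while its fellow replicate 1 had 12. With metastasis, the parous KO samples stood at 0.03 and -0.09, and the lone nulliparous KO tumour at 0.07. Parous and nulliparous KO tumours overlapped. Because the RNA is from bulk tumour, fewer cells of a type and less RNA per cell cannot be told apart in any of these levels.

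**Figure D1:**
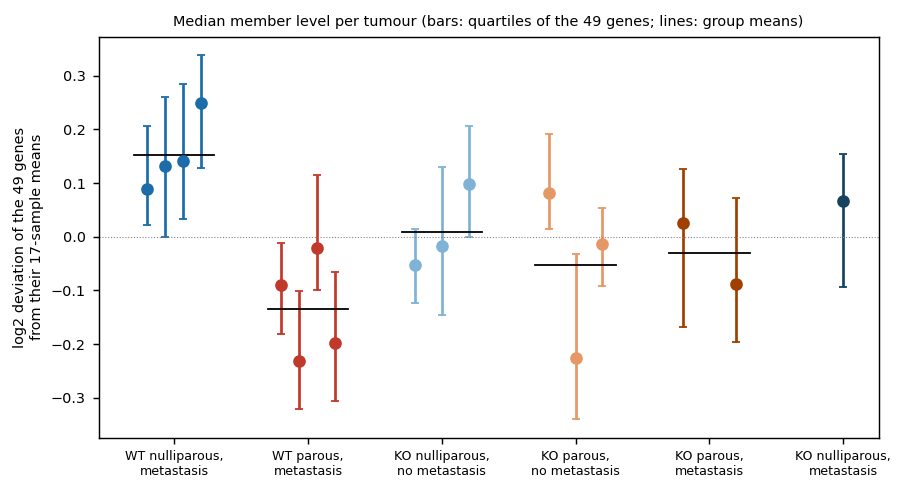
Median log2 deviation of the 49 genes from their means over 17 samples (vertical axis) for each tumour, by group; bars span the quartiles of the 49 genes and horizontal lines are group means. Nulliparous WT tumours lie from 0.09 to 0.25, parous WT tumours from -0.23 to -0.02, and KO tumours from -0.23 to 0.10.

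In parous against nulliparous WT tumours, the contrast behind the list, the members' log2 differences had a median of -0.28 and ran from -1.06 for Garnl3 to 1.47 for Ak1. Of the 49, 42 were below 0 and 31 were below -0.2. The median over all 19938 genes was -0.01, with 51.7% below 0. For 25 members every parous tumour lay below every nulliparous one, as did 7.63% of all genes, and for 1 member, Ak1, every parous tumour lay above, as did 4.98% of all genes. By limma, 1.86% of all genes were called lower and 0.542% higher at an adjusted p under 0.05. Nothing is read from the members' counts, here or by role below, since this contrast chose the members. The share to set beside the counts of genes lower without overlap by role is the same 7.63% of all genes.

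**Figure D2:**
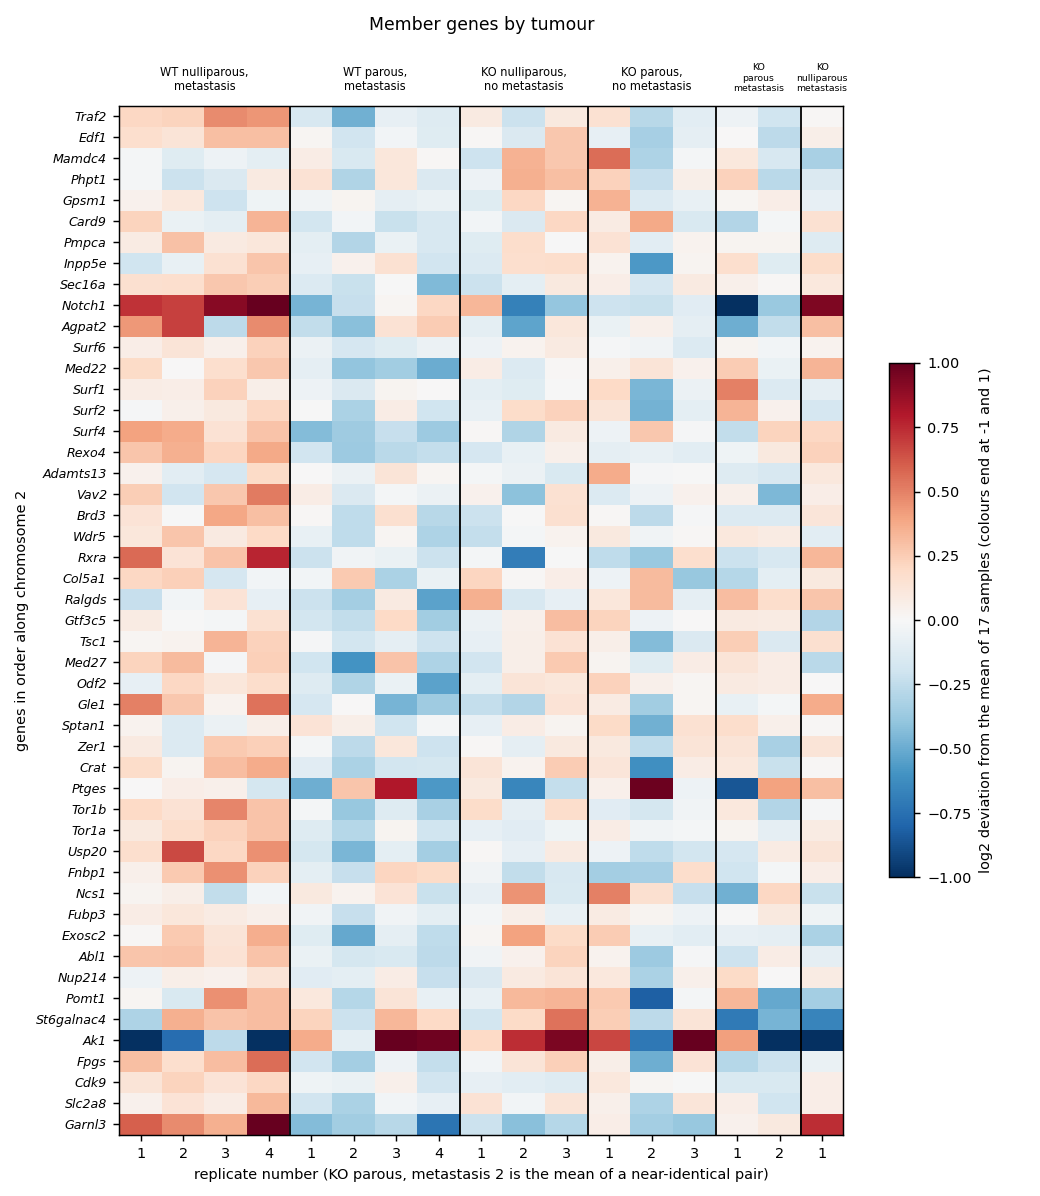
Log2 deviation of each of the 49 genes (rows, in chromosome order) from its mean over 17 samples, in each sample (columns, by group); red is above and blue below the mean, and colours end at -1 and 1. Most rows are red in nulliparous and blue in parous WT tumours, whereas Ak1 runs the other way and parous KO tumour 2 without metastasis is blue in 38 of 49 rows.

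Of the genes of transcription and chromatin, all 10 were below 0 in WT tumours, 7 without overlap, with a median of -0.31. Notch1, a receptor whose cleaved part activates transcription, was 11.73, 11.76, 11.95 and 12.09 in nulliparous and 10.57, 10.81, 11.06 and 11.25 in parous WT tumours. Parous tumours thus held 51.4% of the nulliparous level, a log2 difference of -0.96 (SE 0.31). Among KO tumours Notch1 was 11.37, 10.37 and 10.65 in nulliparous and 10.83, 10.82 and 10.93 in parous animals without metastasis, 8.86 and 10.67 in parous animals with metastasis, and 11.98 in the lone nulliparous tumour with metastasis. That last tumour alone among the KO samples reached the nulliparous WT range.

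Rxra, a nuclear receptor for retinoids, was 10.28, 10.42, 10.71 and 10.90 in nulliparous against 9.92, 10.10, 10.07 and 9.92 in parous WT tumours, a difference of -0.57 (SE 0.17). It was 10.12, 9.45 and 10.13 in nulliparous and 9.88, 9.77 and 10.31 in parous KO tumours without metastasis, 9.92 and 9.98 in parous ones with metastasis, and 10.47 in the lone nulliparous tumour with metastasis. Again that tumour was the highest of the KO samples. Cdk9, the kinase of the elongation factor P-TEFb, differed by a small amount without overlap in the WT groups, at 11.36, 11.37, 11.44 and 11.45 in nulliparous against 11.18, 11.16, 11.28 and 11.03 in parous tumours. Its difference was -0.24 (SE 0.05), or 84.6% of the nulliparous level. The Mediator subunits Med22 and Med27 differed by -0.49 and -0.40, the histone methyltransferase scaffold Wdr5 by -0.32, the coactivator Edf1 by -0.31, the acetyl-histone reader Brd3 by -0.29, the RNA polymerase III factor subunit Gtf3c5 by -0.20 and the nucleic acid binding protein Fubp3 by -0.18. Groups overlapped for Med27, Brd3 and Gtf3c5.

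All 5 genes of RNA processing and export were below 0, 4 without overlap, with a median of -0.43. Rexo4, an exonuclease homologue, was the tightest of the large differences. Its values were 10.74, 10.81, 10.88 and 10.91 in nulliparous and 10.34, 10.17, 10.26 and 10.29 in parous WT tumours, a difference of -0.57 (SE 0.06). KO tumours without metastasis lay between these groups, at 10.36, 10.46 and 10.58 in nulliparous and 10.44, 10.46 and 10.43 in parous animals. Gle1, an mRNA export factor, was 11.09, 11.33, 11.57 and 11.60 in nulliparous and 10.89, 11.06, 10.60 and 10.70 in parous WT tumours, a difference of -0.58 (SE 0.14). The exosome subunit Exosc2 differed by -0.43, the nucleolar protein Surf6 by -0.22 and the nuclear pore protein Nup214 by -0.14, and the groups overlapped only for Nup214.

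Of the signalling genes, 9 of 11 were below 0, 4 without overlap, with a median of -0.25. Garnl3, which has a Rap GAP domain, had the lowest difference of all members, -1.06 (SE 0.15). It was 8.99, 9.11, 9.23 and 9.68 in nulliparous and 8.20, 8.28, 8.36 and 7.90 in parous WT tumours, so parous tumours held 47.8% of the nulliparous level. In 8 of the 9 KO samples Garnl3 lay between 8.22 and 8.73, and the lone nulliparous KO tumour with metastasis was at 9.38, inside the nulliparous WT range. Traf2, an adaptor of TNF receptors, was 10.05, 10.07, 10.28 and 10.31 against 9.69, 9.36, 9.76 and 9.72, a difference of -0.55 (SE 0.12). It was 9.93, 9.63 and 9.94 in nulliparous and 9.997, 9.56 and 9.73 in parous KO tumours without metastasis.

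The tyrosine kinase Abl1 was 11.65, 11.79, 11.79 and 11.79 in nulliparous and 11.44, 11.33, 11.35 and 11.24 in parous WT tumours, or 75.1% of the nulliparous level in the parous ones. Parous KO tumour 2 without metastasis was lower still, at 11.14, and its fellow replicates were at 11.54 and 11.49. Tsc1, which with Tsc2 restrains mTOR complex 1, was 9.96, 9.97, 10.17 and 10.28 in nulliparous and 9.92, 9.75, 9.85 and 9.73 in parous WT tumours. Its difference was -0.28 (SE 0.12), and the groups did not overlap, by a narrow gap. The remaining signalling genes lay between -0.25 for the GTPase exchange factor Vav2 and 0.06 for the calcium sensor Ncs1. Those between them were the adaptor Card9 at -0.25, the Ral exchange factor Ralgds at -0.20, the phosphatase Inpp5e at -0.06, the G protein modulator Gpsm1 at -0.01 and the histidine phosphatase Phpt1 at 0.03, and for all 7 of these genes the groups overlapped.

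All 6 genes of the secretory pathway and glycosylation were below 0, 4 without overlap, with a median of -0.38. Surf4, a cargo receptor of the early secretory pathway, was 12.77, 12.91, 12.99 and 13.03 in nulliparous and 12.19, 12.27, 12.39 and 12.26 in parous WT tumours. The difference was -0.64 (SE 0.12), and parous tumours held 64.0% of the nulliparous level. Surf4 was 12.64, 12.32 and 12.72 in nulliparous and 12.57, 12.89 and 12.62 in parous KO tumours without metastasis, so parous KO tumour 2, low for most members, was the highest of these 6 for Surf4. The torsin ATPases Tor1b and Tor1a differed by -0.49 and -0.34, and Sec16a, which organises ER exit sites, by -0.41. The O-mannosyltransferase Pomt1 differed by -0.19 and the sialyltransferase St6galnac4 by -0.03, and both overlapped between the groups.

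Mitochondrial and metabolic genes included Ak1, described below, which was higher in parous WT tumours, and otherwise resembled the rest, with 6 of 8 below 0, 5 lower without overlap, and a median of -0.30. The folate enzyme Fpgs differed by -0.54, carnitine acetyltransferase Crat by -0.42, the acyltransferase Agpat2 by -0.40, the sugar transporter Slc2a8 and the peptidase subunit Pmpca both by -0.30, and the cytochrome c oxidase assembly factor Surf1 by -0.15. Of these, Agpat2 overlapped between the groups. Prostaglandin E synthase Ptges, at 0.02, was the most variable within parous WT tumours, at 8.11, 8.88, 9.40 and 8.03.

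Of the genes of cytoskeleton, matrix and protein turnover, 6 of 9 were below 0, 1 without overlap, with a median of -0.20. That 1 was the deubiquitinase Usp20, at 9.08, 9.13, 9.38 and 9.58 in nulliparous and 8.74, 8.46, 8.82 and 8.58 in parous WT tumours, a difference of -0.64 (SE 0.11). The centriolar protein Odf2 differed by -0.36, the F-BAR protein Fnbp1 by -0.23, the ubiquitin ligase receptor Zer1 by -0.21, Surf2 by -0.20 and the collagen V chain Col5a1 by -0.10.

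Ak1, an adenylate kinase, escaped the pattern by the widest margin. It was 9.37, 9.66, 10.01 and 10.51 in nulliparous and 11.13, 10.67, 11.90 and 11.74 in parous WT tumours, a log2 difference of 1.47 (SE 0.44) or 2.78-fold. KO tumours without metastasis were at 10.97, 11.50 and 11.71 in nulliparous and 11.43, 10.05 and 11.97 in parous animals. Parous KO tumour 2, at 10.05, lay inside the nulliparous WT range, and the other 5 lay above it. The parous KO samples with metastasis were at 11.17 and 9.71, and the lone nulliparous KO tumour with metastasis was at 9.51, inside the nulliparous WT range. Measured genes next to Ak1 had differences below 0: St6galnac4 on one side was at -0.03 and St6galnac6 at -0.34, while Eng and Fpgs on the other were at -0.74 and -0.54. The other members above 0 in WT tumours were Mamdc4, a MAM domain protein, at 0.08, Ncs1 at 0.06, Adamts13, which cleaves von Willebrand factor, at 0.03, Phpt1 at 0.03, the spectrin Sptan1 at 0.02 and Ptges at 0.02. For Ncs1, Adamts13, Phpt1 and Sptan1 the sign turned when certain single tumours were left out, with values down to -0.04. For Adamts13 and Sptan1 it also turned under another processing choice. Ptges was not examined in this way. Its parous WT values ran from 8.03 to 9.40, against 8.42 to 8.66 in nulliparous WT tumours, so its sign is not taken as stable. Sptan1 overlapped fully between the groups, at 12.27, 12.35, 12.44 and 12.46 in nulliparous and 12.55, 12.47, 12.21 and 12.39 in parous WT tumours.

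**Figure D3:**
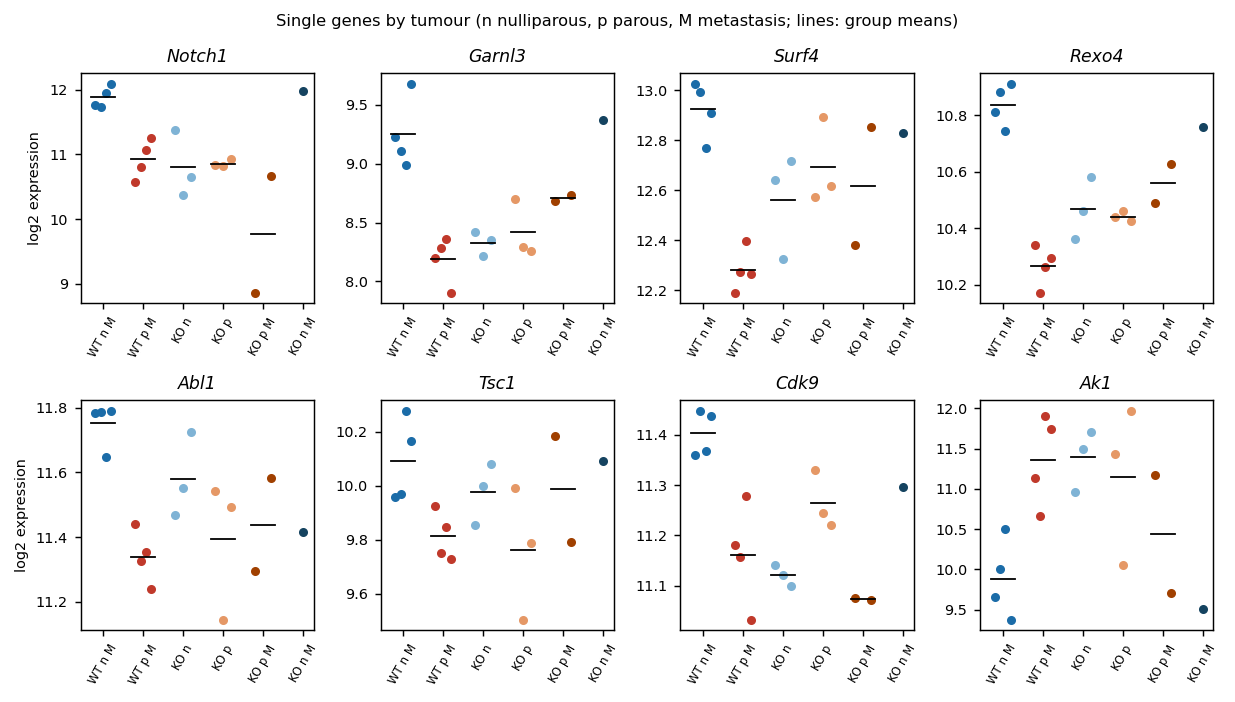
Log2 expression (vertical axes) of 8 members in each tumour, by group; points are tumours, lines are group means, n is nulliparous, p parous and M with metastasis. Notch1, Garnl3, Surf4 and Rexo4 are lower and Ak1 higher in parous than in nulliparous WT tumours without overlap. The lone nulliparous KO tumour with metastasis lies in the nulliparous WT range for Notch1, Garnl3, Surf4, Rexo4, Tsc1 and Ak1, and below it for Abl1 and Cdk9.

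The list leaves out many genes of the same stretch. The annotation places 125 other measured genes between Traf2 and Garnl3, 10 of them predicted. Their median WT parity difference was -0.12, with 96 below 0. Lower without overlap were 28, or 22.4%, against 7.63% of all genes. Of the 125, 85 lay above the dimmest 40%, with a median of -0.26 and 78 below 0, close to the members' own values. The 5 lowest named genes were Slc2a6 at -0.94, Eng at -0.74, Tor2a at -0.66, Cacfd1 at -0.61 and Gtf3c4 at -0.55. The 5 highest were Aif1l at 1.90, Phyhd1 at 0.58, Ajm1 at 0.28, Ttc16 at 0.22 and Cfap157 at 0.15. Members were selected and these genes were not, yet both come from the WT contrast, so the numbers are given side by side without a test.

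**Figure D4:**
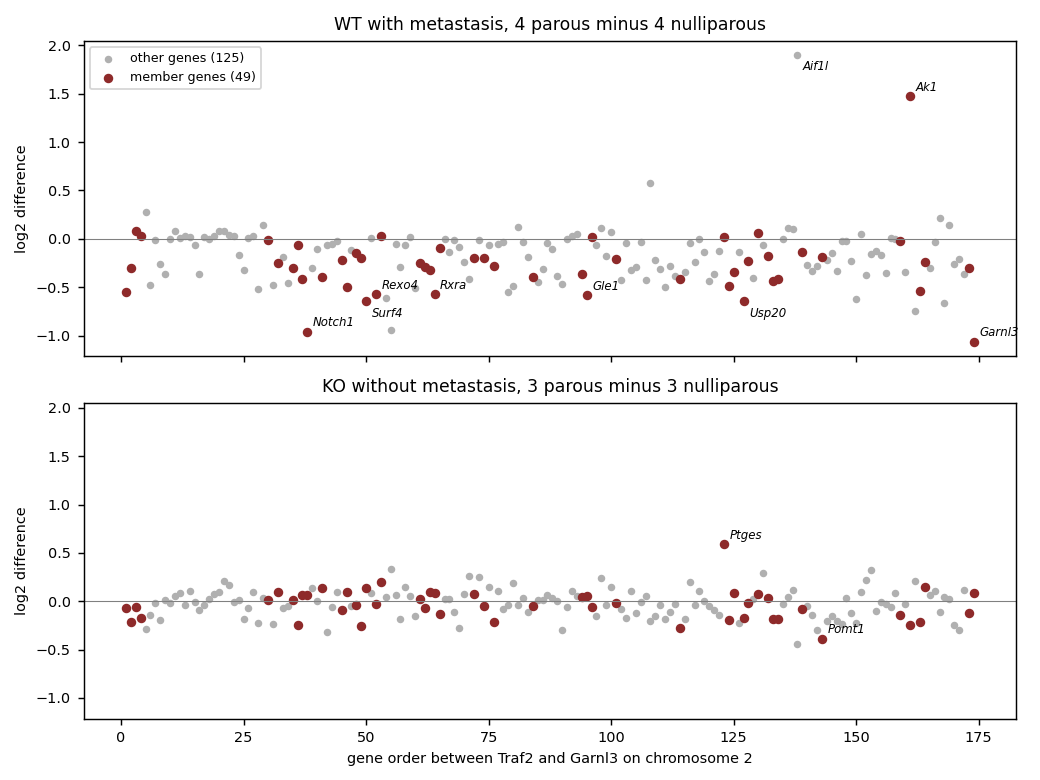
Log2 difference (vertical axis) of each measured gene from Traf2 to Garnl3 in chromosome order (horizontal axis), for parous minus nulliparous WT tumours (top) and KO tumours without metastasis (bottom); 49 members are dark red and 125 other genes grey. In WT tumours most points of both kinds lie below 0, with Ak1 at 1.47 and Aif1l at 1.90 above, and in KO tumours the members' median is -0.03.

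Differences below 0 were also seen outside this stretch. There, 818 other chromosome 2 genes above the dimmest 40% had a median WT parity difference of -0.15, with 74.8% below 0. To follow single tumours, the chromosome's genes above that limit were cut into 24 windows of consecutive genes, 40 in each and 30 in the last, of which windows 3 to 6 hold the members. This view was chosen after values had been seen. Medians of the WT parity difference ranged from -0.29 to -0.07 over the windows and from -0.29 to -0.19 in windows 1 to 7. Such values were not confined to those windows: window 22 was at -0.24, with 35 of its 40 genes below 0.

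The 4 parous WT tumours differed along the chromosome. In parous WT tumour 2 windows 1 to 8 lay between -0.27 and -0.11 and windows 9 to 24 between 0.03 and 0.15, and window 8 itself, at -0.11, was nearer to 0 than windows 1 to 7. Parous WT tumours 1 and 4 lay below 0 in all 24 windows, tumour 4 between -0.22 and -0.08. Parous WT tumour 3 stayed between -0.09 and 0.07 over the chromosome. Parous KO tumour 2 and nulliparous KO tumour 1, both without metastasis, lay below 0 in all 24 windows, from -0.31 to -0.07 and from -0.13 to -0.02. The members were therefore low together with the whole chromosome in some tumours and with its proximal part alone in parous WT tumour 2.

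**Figure D5:**
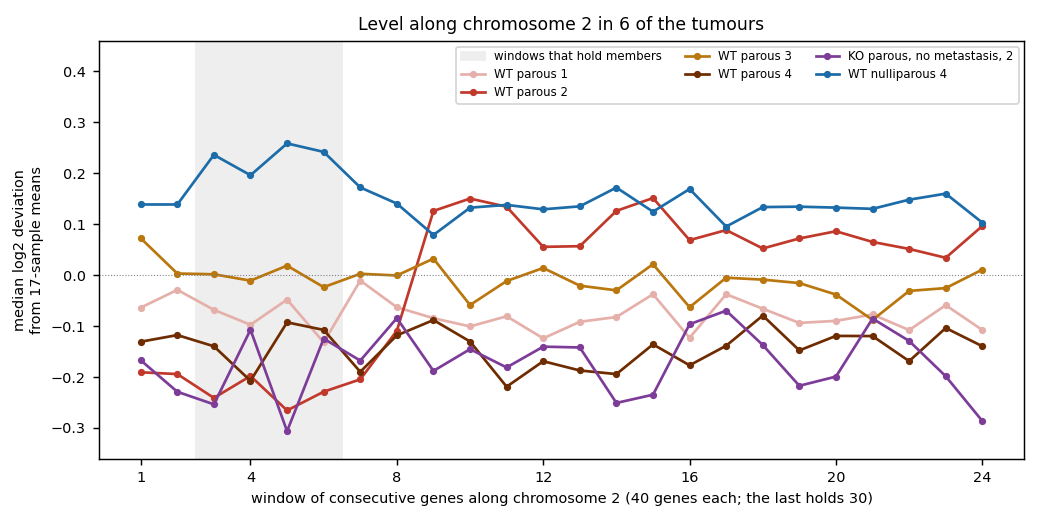
Median log2 deviation from 17-sample means (vertical axis) in 24 windows of consecutive genes along chromosome 2 (horizontal axis), 1 line per tumour for 6 tumours; the shaded windows hold the members. Parous WT tumour 2 lies at or below -0.11 in windows 1 to 8 and at or above 0.03 in windows 9 to 24, while parous WT tumour 4 and parous KO tumour 2 stay below 0 throughout.

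Whether the members also differ with parity among KO tumours without metastasis can be tested, because those tumours were not used to choose them. The WT tumours all had metastasis, so a difference between the WT and KO results cannot tell Snai2 from metastasis. Among KO tumours without metastasis, the members' median difference, parous minus nulliparous, was -0.03, with 28 below and 21 above 0, and the median over all genes was 0.01. No member was called by limma at an adjusted p under 0.05, nor was any of the 19938 genes, so the share called was 0% in each direction. At an unadjusted p under 0.05 there was 1 member, against 655 of all genes, and the smallest adjusted p among members was 1.00. Groups did not overlap for 0 members lower in parous tumours, where 2.9% of all genes were so, and for 3 higher, where 3.14% were so. The 3 were Adamts13, Tor1a and Cdk9.

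Cdk9 had the smallest p of the members. It was 11.14, 11.12 and 11.10 in nulliparous and 11.33, 11.24 and 11.22 in parous KO tumours, a difference of 0.14 (SE 0.06; limma, unadjusted p = 0.040, adjusted p = 1.00). In WT tumours Cdk9 was lower in the parous group. Edf1 followed, with 10.91, 10.74 and 11.16 against 10.81, 10.56 and 10.80 and a difference of -0.21, and then Adamts13 with 0.19. The largest differences by size were 0.59 for Ptges, where parous replicate 2 stood at 9.58, and -0.39 for Pomt1, where the same tumour stood at 9.72. Without that tumour, or any other of the 17 samples in turn, the members' median lay between -0.11 and 0.03 and no member was called. A p that misses the threshold with 3 tumours in a group does not show that the levels were equal.

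Parous KO tumours with and without metastasis gave the other comparison that the choice of genes did not use. The members' median difference, with minus without metastasis, was 0.00, with 23 below and 26 above 0, and over all genes it was -0.03. Again 0 members and 0% of all genes were called by limma in either direction, with 4 members and 805 of all genes at an unadjusted p under 0.05, and the smallest adjusted p among members was 0.967. Groups did not overlap for 5 members lower in tumours with metastasis (Notch1, Agpat2, Adamts13, St6galnac4 and Cdk9), where 10% of all genes were so, and for 2 higher (Rexo4 and Med27), where 4.41% were so.

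Notch1 showed the widest difference here, -1.09 (SE 0.40; limma, unadjusted p = 0.018, adjusted p = 0.967). It rested on 1 sample: parous KO tumour 1 with metastasis was at 8.86 and the other sample of that group at 10.67, close to the 10.82 to 10.93 of tumours without metastasis. Without replicate 1 the difference was -0.19, and without replicate 2 it was -1.9975. Cdk9 was 11.08 and 11.07 with metastasis against 11.33, 11.24 and 11.22 without, a difference of -0.19 (limma, unadjusted p = 0.018, adjusted p = 0.967). St6galnac4 was 10.85 and 11.09 against 11.80, 11.29 and 11.69, a difference of -0.63 (limma, unadjusted p = 0.023, adjusted p = 0.967). The fourth member under 0.05 before adjustment was Adamts13, at -0.27.

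KO tumours were also set against the WT ranges for the 25 members whose WT groups were lower in parous tumours without overlap. Parous KO tumour 2 without metastasis was at or below the highest parous WT value for 19 of them and at or above the lowest nulliparous WT value for 2. Parous KO tumour 1 without metastasis was at or below the parous limit for 4 and at or above the nulliparous limit for 10. Nulliparous KO tumour 3 without metastasis gave 6 and 11, and the lone nulliparous KO tumour with metastasis gave 7 and 9. Nulliparous KO tumour 2 without metastasis gave 14 and 5, the most at or below the parous limit among nulliparous KO tumours. The KO tumours thus ranged from mostly low values, most so in parous KO tumour 2, to mixed values. Over all 1522 genes that were lower without overlap in WT tumours, parous KO tumour 2 was at or below the parous limit for 38.8% and at or above the nulliparous limit for 46.2%. These shares were 56.1% and 25.6% for parous KO tumour 1, 30.2% and 49.5% for nulliparous KO tumour 3, and 24.97% and 53.8% for the lone nulliparous KO tumour. For nulliparous KO tumour 2 without metastasis they were 65.6% and 19.1%.

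In the KO tumours, which had no part in the choice, members tended to vary together, and other genes of the stretch varied with them. Over the 9 KO samples, the Pearson correlation of a member with the median level of the other members had a median of 0.39, and 41 of 49 were above 0. It was highest for the phosphatase Inpp5e, at 0.89, and lowest for Ptges, at -0.62. The median was 0.41 for the 125 other genes of the stretch, or 0.47 for those above the dimmest 40%. For 18206 genes off chromosome 2 it was 0.12, or 0.02 for those above the dimmest 40%. The 1558 measured genes of chromosome 2 outside the stretch lay between, with a median of 0.27. Over 16 samples taken about their group means, which leaves out group differences, the members' median correlation was 0.51. It ran from -0.70 for Col5a1 to 0.90 for Surf2. Other genes of the stretch had 0.33, or 0.45 above the dimmest 40%. The rest of chromosome 2 had 0.19 and genes off chromosome 2 had 0.09. These samples include the WT tumours that chose the members. All these values share the same arrays and are given as a description. The KO values include parous KO tumour 2 without metastasis, whose level of -0.23 stood apart from the -0.09 to 0.10 of the other KO samples. Their dependence on that tumour was not tested. Inpp5e is thus a member that hardly differed between the WT groups, at -0.06, yet followed the members' level most closely among KO samples.

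The genes outside the list whose values over the 17 samples were most like the members' median level were sought by Pearson correlation, first on chromosome 2. They were Gapvd1 at 0.96, Fbxw5 and Ehmt1 at 0.91, Pdcl at 0.90 and Anapc2 at 0.88, and all 5 lie outside the stretch from Traf2 to Garnl3. On other chromosomes the highest were Tead2 on chromosome 7 at 0.89, Maco1 on chromosome 4 at 0.86, Tox3 on chromosome 8 at 0.85, Exosc10 on chromosome 4 at 0.85 and Rgs12 on chromosome 5 at 0.84. These correlations include the WT groups that chose the members and carry no test.

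Some other measured features moved with parity in the same WT tumours. The mean log2 level of 17 measured interferon response genes ran from 10.60 to 11.13 in nulliparous and from 8.42 to 9.63 in parous WT tumours, with all 17 lower and 0 of them dim. Among KO samples this list was at 10.55 in the lone nulliparous tumour with metastasis and between 8.23 and 9.94 in the other 8. For members, that lone tumour lay in the nulliparous WT range for Notch1, Garnl3, Ak1, Surf4, Rexo4, Gle1, Rxra and Tsc1, among others. It lay below that range for Abl1, Cdk9 and Traf2, among others. Of the 25 members lower without overlap in parous WT tumours, it reached the lowest nulliparous WT value for 9, or 36%. The share was 53.8% over all 1522 such genes. All 10 fibroblast markers were lower in parous WT tumours, with a median of -0.69 and levels of 9.54 to 10.49 against 8.08 to 10.17. All 10 macrophage markers were lower, with a median of -0.58 and levels of 9.84 to 10.32 against 9.14 to 10.30. All 9 T and NK cell markers, 8 of them dim, were lower, with levels of 6.64 to 7.92 against 6.38 to 6.61, and all 8 skeletal muscle markers were lower, with levels of 7.15 to 10.84 against 7.16 to 8.31. Of the 12 luminal epithelial markers 5 were lower, with a median of 0.06. So were 2 of 6 neutrophil markers, 5 of these 6 dim, with a median of 0.03, and 7 of 11 cell cycle genes, with a median of -0.02. In parous against nulliparous KO tumours without metastasis, 8 of 10 fibroblast and 2 of 10 macrophage markers were lower. There, 2 of 9 T and NK cell markers, 1 of 8 muscle markers and 2 of 17 interferon response genes were lower. The part of these lists in the members' values was not tested.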

How the data were processed

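Total RNA from mammary tumours was hybridised to 18 single-colour Affymetrix whole-transcript arrays. The authors deposited log2 expression values of 35556 probe sets. Per the submitters' processing notes, RMA and the oligo package were used, and no version is recorded in the sources used here. RMA includes quantile normalization, so a shift shared by all genes is removed and dim genes are compressed. Arrays have no sequencing depth; their number limits the precision.

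Of the probe sets, 21789 had 1 gene in the platform annotation, 1621 several and 12146 none, and the last 2 kinds were left out. Each of 19938 genes was represented by its probe set of highest mean, of which 19855 matched RefSeq genes of GRCm38.p6, a table used for chromosome and gene order. Promoters are RefSeq's. Group means of all 6 groups were fitted by limma 3.58.1 under R 4.3.3 with moderated 2-sided tests, which were tested on simulated data first, with Benjamini-Hochberg adjustment over all genes and a threshold of 0.05. Arrays are labelled as biological replicates, and p-values thus measure the spread between tumours. Members and gene lists were chosen with earlier results of these data known. The rule for named genes covered the 8 lowest and 6 highest members in WT tumours. It also took the 3 smallest p-values of each KO contrast and a few genes known in tumour biology. For some of these members only the WT values or the difference are printed. The rule further named the 5 lowest and 5 highest other genes of the stretch and the 5 most alike genes on and off chromosome 2. Alternatives were another summary of probe sets, a filter on dim genes, a repeated normalization, both near-identical arrays kept apart, only the groups compared, a replicate block, array weights and each sample left out in turn.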

Additional observations from a re-analysis of the deposited data

Results flagged for a closer look

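For 4 members, 1 nulliparous WT tumour stood apart from the other 3 by Dixon's criterion. Pmpca was at 11.37 in tumour 2 against 11.16 to 11.19 in the others, and Surf1 was at 10.75 in tumour 3 against 10.58 to 10.59. Abl1 was at 11.65 in tumour 3 against 11.79 in each of the others, and St6galnac4 was at 11.25 in tumour 1 against 11.84 to 11.91. These were 4 of 100 groups examined, and chance alone marks about 1 in 20. There were 2 members that had parity groups apart in opposite directions in WT and KO tumours: Cdk9 was higher by 0.14 and Tor1a by 0.085 in parous KO tumours without metastasis, and both were lower in parous WT tumours. A limma contrast of the KO and WT parity differences marked no member at an adjusted p under 0.05. Nothing is read from it, because the WT contrast chose the members. These WT tumours had metastasis and these KO tumours did not, so genotype and metastasis cannot be told apart.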

How the results depend on the processing

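The members' median WT parity difference lay between -0.32 and -0.24 under every alternative run, the KO parity median between -0.11 and 0.03, and the KO metastasis median between -0.06 and 0.06. In both KO contrasts 0 members were called by limma under every alternative. Over all genes, 370 were called lower in parous WT tumours. That count was 629 with only the 2 groups compared, 158 with the replicate number as a block and 1147 with array weights. It lay between 44, without nulliparous WT tumour 4, and 588, without parous KO tumour 2 without metastasis, over the samples left out in turn. It was 203 without parous WT tumour 1 and likewise without 2, 64 without 3, 68 without 4, and 52 without nulliparous WT tumour 1. The cause was not tested. The replicate block changed no other call. Numbers in the titles do not pair the tumours: same-numbered parous and nulliparous tumours had correlations of -0.15, 0.07, 0.01 and 0.04 in WT and -0.28, -0.31 and -0.05 in KO.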
